A study of Mus musculus with 6 samples.

Results

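The genes of the mitotic spindle, the kinetochore and the mitotic kinases were followed in 3 mouse cell lines. The set holds 60 genes chosen by name for their part in mitosis, with earlier results of these data known. Each was matched by symbol to the array platform's probe annotation, and 59 of them, out of 19505 genes with a symbol on the array, had a probe set, 1 for each. Foxm1 is not analysed here. All 3 lines are labelled as melan-a melanocytes, immortalized and of C57BL/6J genotype (their pigment markers, given below, were mostly at background), and were grown untreated in RPMI medium with 10% fetal bovine serum. The mVec cells, described as melanocytes, were transduced with a control vector. The mKitK641E(T) and mKitK641E(PT) lines, called T and PT here, are described as melanoma that arose by transformation with mutant c-kit, K641E. Kit is a receptor tyrosine kinase that melanocytes need to develop. The titles call T "C3#" and PT "hi exp", and the labels do not say what these words or the letters T and PT stand for. Each line was measured on 2 Affymetrix Clariom S arrays from total RNA. Each group is therefore 1 line. The labels do not say whether its 2 arrays came from separate cultures, so the errors and p-values below cover only the spread between arrays of a line.

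Mitosis separates the copied chromosomes into daughter cells. The kinase Cdk1, bound to cyclins, starts it, and the Aurora, Polo and NIMA-related kinases shape the spindle. The kinetochore, built on centromeric chromatin, ties each chromosome to microtubules, while the spindle checkpoint restrains Cdc20 and the anaphase-promoting complex until every chromosome is attached. Kinesin motors move chromosomes and slide microtubules, and the central spindle and the contractile ring then divide the cell. Transcripts of most of these genes rise in late S phase and G2 and are low in cells that do not divide.

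All values are the deposited expression values, read as log2 from their range because the labels do not state the scale, and each difference is a difference of these values with the standard error of the limma fit. Array medians over 22206 gene probe sets ran from 5.64 to 5.89. A group is called at background where neither array exceeds the 95th percentile of the negative controls of that array, which lay between 8.74 and 9.16. Against a group at background a fold is written as "at least", computed from the limit itself, and no fold is printed for a pair of groups at background. Pigment genes were at background in these cells: of 11 measured melanocyte markers, 9 were above the limit on neither T array, 10 on neither PT array and 10 on neither mVec array, with Tyr, Dct and Sox10 at background in all 3 lines. Gpnmb was above it on all 6 arrays, and Mitf on both T arrays and on no other. The summed linear level of the 11 markers was 40499 and 39520 in mVec, 14865 and 15390 in T and 7654 and 8304 in PT. In each Kit line, 2 were called lower and 1 higher than mVec. Over all gene probe sets, 15.5% were called lower and 16.9% higher in T, and 18.0% and 17.9% in PT. The counts of this list therefore say little about it. Gpnmb fell 2.73-fold in T and 5.36-fold in PT. Tyrp1, Pmel and Mlana, further defining markers of the labelled cell type, were at background in all 3 lines too. Fibroblast markers differed between mVec and the Kit lines, as the mitotic genes did. In each Kit line 6 of these markers were called lower than mVec and 1, Col1a2, was called higher. In T minus PT, 1 of these markers was called higher and 0 lower, against 5.67% and 2.70% of all gene probe sets. Of 9 measured, 6 were above the limit on both mVec arrays, 4 on both T arrays and 2 on both PT arrays, and their summed level on the linear scale was 250589 and 264139 in mVec against 64957 to 69248 on the 4 Kit arrays. The part of either marker list in the results below was not tested. The keratinocyte, leukocyte, mast cell and Schwann cell markers measured were at background in every group, and of the endothelial markers Cdh5 was above it in mVec alone. In these bulk samples a smaller share of dividing cells and less RNA per dividing cell cannot be told apart.

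Most of the mitotic genes were higher in both Kit lines than in mVec, and most were higher in PT than in T. In T minus mVec, 56 of 59 genes rose and 0 fell by limma's test at an adjusted p under 0.05, where 16.9% of all gene probe sets were called higher and 15.5% lower (32.4% in all). In PT minus mVec, all 59 rose, against 17.9% called higher and 18.0% called lower of all gene probe sets (35.9% in all). For 6 of the 56 calls in T and 5 of the 59 in PT, both lines compared were at background. The arrays of T lay above those of mVec without overlap for 58 of the 59, and those of PT for 59, against 31.6% and 36.2% of all gene probe sets. In T minus PT, 42 of 59 were lower in T and 0 higher, against 2.70% lower and 5.67% higher of all gene probe sets (8.36% in all). Of these 42 calls, 11 held in every alternative run: Nek2, Ube2c, Cenpa, Cenpm, Ndc80, Cenpe, Nusap1, Tpx2, Tacc3, Hmmr and Cdca8. The others were each lost in at least 1. No gene of the set went the other way at an unadjusted p under 0.05 in any of the 3 comparisons, since all 59 differences had the same sign within each. The median difference over the 59 genes was 2.49 in T minus mVec, 3.83 in PT minus mVec and -1.24 in T minus PT, where the medians over all gene probe sets were 0.01, 0.08 and -0.04. A fitted difference that involves a line at background has no exact size. With such genes set at their bound against the limit, and at 0 where both lines were at background, the medians were 1.40, 2.54 and -1.18, a value computed after the data were seen. The comparisons share arrays and are not independent. Since the 59 genes were chosen with earlier results of these data known, their counts are not independent of that choice either. The deposited scaling matters for the wider count: with each array centred on its median, 4690 of 7531 calls over all gene probe sets were higher in T than in mVec, against 3763 of 7201 as deposited, and 5310 of 8811 in PT, against 3981 of 7975. Centring moved the median of all gene probe sets to 0.20 and 0.27, and the medians of the mitotic genes to 2.68 and 4.02.

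The means of the lines had the same order for every measured gene, but the arrays did not. The means of all 59 lay in the order mVec, T, PT, an order that 25.1% of all gene probe sets had. For 53 of the 59, the arrays themselves kept this order with no overlap between any 2 lines, against 8.94% of all gene probe sets. The 6 exceptions were Cdk1, Ttk, Bub1, Mad2l1 and Cdc25c, whose T and PT arrays overlapped, and Spc25, whose T and mVec arrays overlapped. Fewer of these transcripts could be seen in mVec: 13 of 59 were above background on both mVec arrays, 48 on both T arrays and 53 on both PT arrays. These 3 counts depend on the limit. They were 29, 52 and 57 with the 90th percentile and 1, 6 and 18 with the 99th. For 33 genes in T and 37 in PT the comparison with mVec set a line above background against one at background.

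**Figure D1:**
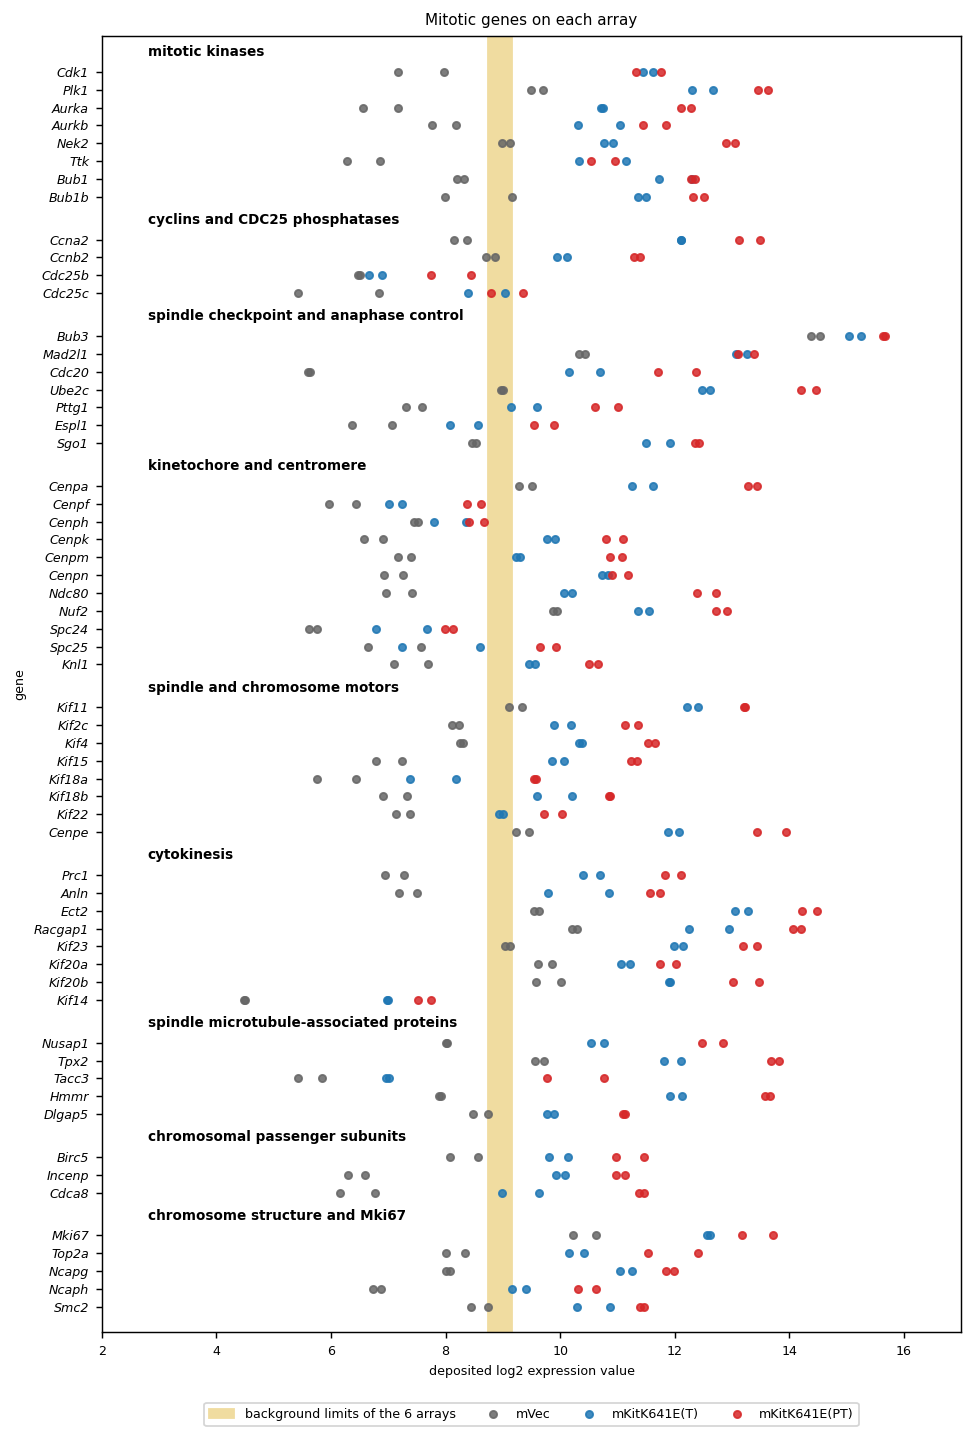
Deposited log2 value of each of the 59 measured mitotic genes on each of the 6 arrays, grouped by role, with 2 points for each line (grey mVec, blue T, red PT) and a band from 8.74 to 9.16 for the background limits of the arrays. In 53 of the 59 rows the grey points lie left of the blue and the blue left of the red with no overlap.

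Promoters of mitotic genes are known for a pair of short elements, and 5 promoters are printed to show them. The CHR element (cell cycle genes homology region, TTTGAA or TTCGAA) is bound by the MuvB complexes that keep mitotic genes silent in resting cells and activate them before mitosis, and the CCAAT box (CCAAT) is bound by NF-Y. Both were searched on both strands of RefSeq windows (GRCm38.p6) from 250 bases before to 50 bases after each annotated start. The end of CCAAT can form the beginning of TTTGAA, but no matches overlap in the stretches printed. Of the 59 genes, 51 had a window. The printed stretches are the 150 bases before the start in the 5 genes with the largest fitted PT minus mVec difference among 14 that hold both motifs there. Capitals mark the motifs on either strand.
Cdc20 (chr4:118437344-118437493, minus strand): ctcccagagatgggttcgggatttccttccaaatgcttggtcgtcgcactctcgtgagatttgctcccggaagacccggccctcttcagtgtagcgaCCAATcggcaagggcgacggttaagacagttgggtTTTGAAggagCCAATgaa
Ube2c (chr2:164769779-164769928, plus strand): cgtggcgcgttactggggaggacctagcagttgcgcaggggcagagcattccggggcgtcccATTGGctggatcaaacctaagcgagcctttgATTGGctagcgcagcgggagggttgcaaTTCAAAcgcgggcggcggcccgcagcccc
Prc1 (chr7:80294326-80294475, plus strand): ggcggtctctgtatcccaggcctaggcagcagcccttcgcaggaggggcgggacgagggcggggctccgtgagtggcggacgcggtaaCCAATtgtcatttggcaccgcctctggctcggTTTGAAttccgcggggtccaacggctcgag
Ect2 (chr3:27153855-27154004, minus strand): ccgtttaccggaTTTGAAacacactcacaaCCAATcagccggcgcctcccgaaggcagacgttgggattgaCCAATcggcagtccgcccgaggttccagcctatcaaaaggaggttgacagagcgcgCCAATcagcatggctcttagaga
Kif11 (chr19:37376232-37376381, plus strand): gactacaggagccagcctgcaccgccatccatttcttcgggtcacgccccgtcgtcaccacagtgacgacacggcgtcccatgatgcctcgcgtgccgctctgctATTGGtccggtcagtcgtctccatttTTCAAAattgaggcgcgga

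In Cdc20 the CHR element begins 18 bases before the start, with CCAAT boxes beginning 53 and 8 bases before it. In Ube2c it begins 29 bases before the start, in Prc1 30 and in Kif11 19, each downstream of a CCAAT box. In Ect2 the element inside the printed stretch lies farther out, 138 bases before the start, and another begins 15 bases after it.

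Over the whole window, 39 of the 51 genes (76.5%) held a CHR element, against 21.7% of 27025 genes with a RefSeq window. A CCAAT box was found in 37 of 51 (72.5%) against 41.1%, and both in 33 of 51 (64.7%) against 8.61%. The CHR elements gathered at the start: 26 of 51 genes (51.0%) had one beginning between 50 bases before and 20 bases after it, against 4.79% of all genes. Among 20 genes of G1/S and DNA replication, 14 (70.0%) held a CCAAT box but 5 (25.0%) a CHR element. Among 19 non-mitotic kinesins, 7 (36.8%) held a CCAAT box and 3 (15.8%) a CHR element. These are matches of letters and not measured binding sites. Birc5, Kif18a, Mad2l1, Ncaph, Nuf2, Nusap1, Pttg1 and Tacc3 had neither motif in their windows. All of them but Mad2l1 were called lower in T than in PT, as were 42 of the 59 genes of the set.

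**Figure D2:**
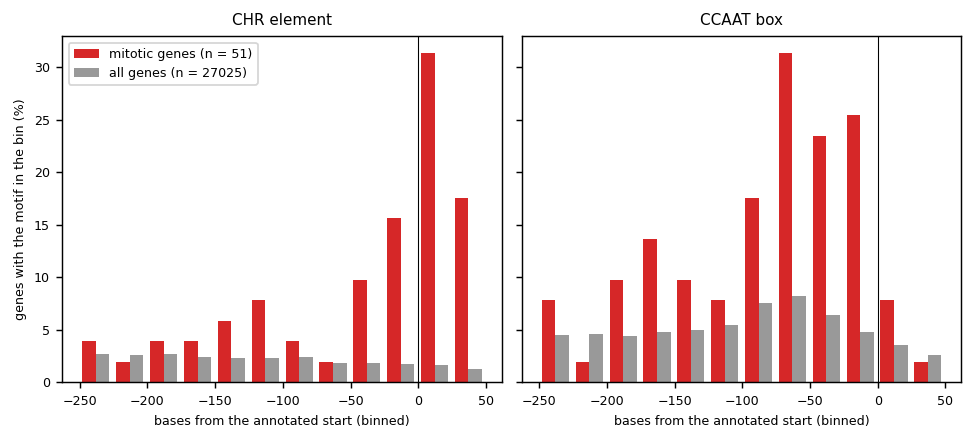
Share of genes (%) whose RefSeq promoter window holds a CHR element (left) or a CCAAT box (right) beginning in each bin of 25 bases, by distance from the annotated start, for 51 mitotic genes (red) and 27025 genes (grey). In the first 25 transcribed bases 31.4% of the mitotic genes and 1.68% of all genes hold a CHR element; CCAAT boxes are most frequent between 75 and 51 bases before the start, at 31.4% against 8.21%.

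All 8 mitotic kinases rose in both Kit lines. Their median difference was 3.32 in T minus mVec and 3.95 in PT minus mVec, and every one of them was above background on both arrays of both Kit lines. Cdk1, the kinase that drives entry into mitosis, had values of 7.17 and 7.98 in mVec, 11.44 and 11.63 in T, and 11.33 and 11.75 in PT. Over mVec, Cdk1 was at least 5.79-fold higher in T (3.96 ± 0.29, adjusted p = 4.82e-06 by limma) and at least 5.81-fold higher in PT. The 2 Kit lines did not differ in Cdk1 beyond their spread, with a difference of -0.01 ± 0.29 and a 95% interval from -0.66 to 0.65. Ttk, the checkpoint kinase also called Mps1, read 6.85 and 6.29 in mVec, 10.33 and 11.15 in T, and 10.96 and 10.53 in PT. Its T and PT arrays overlapped, and the difference of -0.01 ± 0.32 had an interval from -0.72 to 0.71. Bub1, which recruits checkpoint proteins to the kinetochore, was likewise high in both lines, at least 8.08-fold over mVec in T and at least 9.99-fold in PT, and T minus PT was -0.31 ± 0.24 (interval -0.84 to 0.23).

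Of the other kinases, 3 were called lower in T than in PT and 2 were not. Aurka, which matures centrosomes and builds the spindle poles, had values of 7.17 and 6.55 in mVec, 10.76 and 10.71 in T, and 12.10 and 12.28 in PT, so that each line stood apart from the others. Aurka exceeded its mVec level at least 3.32-fold in T and at least 9.13-fold in PT, and T was lower than PT by limma's test (-1.46 ± 0.24, adjusted p = 0.00762). That call was lost in 4 of 14 alternatives, without T replicate 2 (0.0516), PT replicate 1 (0.0503) or PT replicate 2 (0.0587) and with a minimum difference of 0.5 (0.0733), in a range from 0.00182. Nek2, a centrosome-splitting kinase, had 8.98 and 9.13 in mVec, 10.92 and 10.76 in T, and 12.90 and 13.05 in PT, with 1 of the mVec arrays at background. It showed the largest gap between T and PT among the kinases, 4.4-fold (-2.14 ± 0.20, adjusted p = 0.000868). Plk1, the Polo kinase needed from mitotic entry to cytokinesis, was above background on every array, with 9.50 and 9.70 in mVec, 12.29 and 12.67 in T, and 13.62 and 13.45 in PT. Its rise was 7.36-fold in T (2.88 ± 0.22) and 15.3-fold in PT (3.94 ± 0.22). T minus PT was -1.06 ± 0.22 for it (limma adjusted p = 0.0196), a call lost in 4 of 14 alternatives (range 0.00339 to 0.329), without T replicate 1 (0.0715), PT replicate 1 (0.129) or PT replicate 2 (0.0688) among them. The call of Nek2 held in all 14. Aurkb, the kinase of the chromosomal passenger complex, and the checkpoint protein Bub1b, or BubR1, were lower on both T arrays than on both PT arrays, but the differences of -0.97 ± 0.29 and -0.99 ± 0.34 did not pass limma's test (adjusted p = 0.0751 and 0.114). In all, 3 of the 8 kinases were called lower in T than in PT, with a median of -0.98 for the group.

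Among the cyclins and CDC25 phosphatases, which switch Cdk1 on, all 4 measured were called higher in PT and 3 in T. Ccna2, a cyclin of S phase and early mitosis, had values of 8.38 and 8.15 in mVec, 12.10 and 12.11 in T, and 13.12 and 13.48 in PT. Ccna2 was at least 8.6-fold higher in T and at least 19.6-fold higher in PT than in mVec, and T was lower than PT (-1.19 ± 0.22, limma adjusted p = 0.011). Ccnb2, a B-type cyclin, rose by 1.25 ± 0.20 in T and 2.57 ± 0.20 in PT, from a mean just under the limit in mVec (8.78). Cdc25b, an activating phosphatase, was at background in all 3 lines, with 6.47 and 6.51 in mVec, 6.66 and 6.90 in T, and 7.75 and 8.44 in PT. It was 1 of the 3 genes not called in T minus mVec (0.29 ± 0.26, adjusted p = 0.474 by limma), although its arrays did not overlap, and it was called higher in PT (1.61 ± 0.26, adjusted p = 0.0007). Its relative Cdc25c had the widest spread between the mVec arrays of any gene of the set, with 6.84 and 5.42 in mVec, 8.39 and 9.03 in T, and 8.79 and 9.35 in PT, and was above background on 1 array of each Kit line. Cdc25c was called higher than mVec in both lines (2.58 ± 0.43 in T, 2.94 ± 0.43 in PT), and its T and PT arrays overlapped.

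All 7 genes of the spindle checkpoint and of anaphase rose in both lines. Cdc20 activates the anaphase-promoting complex and is held back by the checkpoint; it had 5.61 and 5.64 in mVec, 10.70 and 10.15 in T, and 11.70 and 12.36 in PT, with mVec far below the limit. Against the limit, Cdc20 was at least 8.17-fold higher in PT and at least 2.67-fold higher in T. Ube2c, the ubiquitin-conjugating enzyme that works with that complex, read 9.01 and 8.97 in mVec, 12.48 and 12.61 in T, and 14.19 and 14.46 in PT. With 1 mVec array above background, its folds over mVec were 11.8 in T and 40.4 in PT (3.56 ± 0.21 and 5.34 ± 0.21), the latter the largest fold not given as a bound, and T was lower than PT (-1.78 ± 0.21, limma adjusted p = 0.00176). Mad2l1, the checkpoint protein that binds Cdc20, was bright in every line, with 10.43 and 10.32 in mVec, 13.07 and 13.25 in T, and 13.39 and 13.10 in PT. It rose 6.88-fold in T and 7.29-fold in PT, and the Kit lines overlapped (-0.08 ± 0.21, interval -0.56 to 0.39).

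Bub3, the partner of Bub1 and BubR1, was above background on all arrays, with 14.53 and 14.37 in mVec, 15.04 and 15.25 in T, and 15.64 and 15.67 in PT. The arrays did not overlap, and it rose by 0.70 ± 0.20 in T (limma adjusted p = 0.0246) and by 1.20 ± 0.20 in PT. The call in T was lost in 5 of 14 alternatives, without T replicate 2 (limma adjusted p = 0.11), mVec replicate 1 (0.0759) or mVec replicate 2 (0.154) among them, in a range from 0.000743 to 0.561. The securin Pttg1 and the separase Espl1, which securin inhibits until anaphase, were both lower in T than in PT (-1.45 ± 0.25 and -1.40 ± 0.29, adjusted p = 0.00854 and 0.019). Espl1 was above background on both arrays of PT and on none of T or mVec, with 6.36 and 7.06 in mVec, 8.57 and 8.07 in T, and 9.89 and 9.54 in PT. Sgo1, the shugoshin that protects cohesin at the centromere, rose by 3.21 ± 0.22 in T and 3.89 ± 0.22 in PT. T minus PT for Sgo1 did not pass (limma adjusted p = 0.0952).

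Of the kinetochore and centromere genes, all 11 rose in PT and 9 in T, with medians of 3.19 and 1.98. The NDC80 complex, the coupler that grips microtubules, has 4 subunits. Ndc80 had 7.41 and 6.96 in mVec, 10.21 and 10.06 in T, and 12.72 and 12.39 in PT, a gap of 5.34-fold between the Kit lines (-2.42 ± 0.24, limma adjusted p = 0.000928), the widest among the 50 genes with at least 1 array above background in each Kit line. Its dimer partner Nuf2 was above background on all arrays, with 9.88 and 9.95 in mVec, 11.54 and 11.35 in T, and 12.92 and 12.73 in PT, and rose 2.89-fold in T and 7.51-fold in PT. For Ndc80, at background in mVec, the rise was at least 2.19-fold in T and at least 11.7-fold in PT. Spc24 was at background on all arrays, where its mean was 5.68 in mVec against 7.23 in T and 8.06 in PT, and was called higher than mVec in both Kit lines (1.55 ± 0.28 and 2.37 ± 0.28). Spc25 had the widest spread between the T arrays of any of the genes, with 6.65 and 7.57 in mVec, 8.59 and 7.24 in T, and 9.64 and 9.93 in PT. Spc25 was not called in T minus mVec (0.81 ± 0.43, limma adjusted p = 0.202; without T replicate 2 it was 1.48, adjusted p = 0.0205), and was called higher in PT (2.68 ± 0.43, adjusted p = 0.000677), with a range over its alternatives in T from 0.0205 to 0.83.

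Cenpa, the histone variant that marks the centromere, was above background on every array, with 9.51 and 9.28 in mVec, 11.25 and 11.63 in T, and 13.28 and 13.43 in PT. Its rise was 4.12-fold in T and 15.6-fold in PT, and the gap between the Kit lines (-1.92 ± 0.22) was about as large as the step from mVec to T (2.04 ± 0.22). Among the subunits of the inner kinetochore network, Cenpk (at least 1.78-fold in T and at least 3.85-fold in PT) and Cenpm (at least 1.19-fold and at least 3.93-fold) were lower in T than in PT by limma's test. Cenpn, which binds Cenpa nucleosomes, had close values in the 2 Kit lines, with 7.26 and 6.93 in mVec, 10.72 and 10.84 in T, and 10.91 and 11.18 in PT. Its T minus PT difference was -0.27 ± 0.22 (interval -0.76 to 0.23). Cenph was at background on all arrays and was called higher in PT (limma adjusted p = 0.00602, range over its alternatives 0.000926 to 0.0855). That call was lost without PT replicate 2 (0.0510) and with a minimum difference of 0.5 (0.0855), and Cenph was not called in T (adjusted p = 0.0925). Cenpf, a large protein of the outer corona, was at background too, with calls in both lines (0.92 ± 0.23 and 2.29 ± 0.23). The Cenpf call in T was lost in 3 of 13 alternatives, among them the fits without T replicate 1 (limma adjusted p = 0.0657) and without mVec replicate 2 (0.128), in a range from 0.00435 to 0.21. Knl1, the scaffold that binds the Bub proteins, rose by 2.12 ± 0.24 in T and 3.19 ± 0.24 in PT.

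Mitotic motors rose in both lines, and 7 of the 8 counted under spindle and chromosome movement were lower in T than in PT. Kif11, the Eg5 motor that pushes the poles apart, had 9.10 and 9.34 in mVec, 12.40 and 12.20 in T, and 13.21 and 13.22 in PT and rose 8.47-fold in T and 15.9-fold in PT. Cenpe, the motor that carries chromosomes to the spindle equator, had 9.22 and 9.46 in mVec, 11.88 and 12.08 in T, and 13.94 and 13.43 in PT, and its rise was 6.21-fold in T and 20.3-fold in PT. Both were above background on all 6 arrays and in the order mVec, T, PT without overlap. Kif18a, which dampens chromosome movement, was above background in PT alone of the 3 lines, with 6.43 and 5.75 in mVec, 8.18 and 7.39 in T, and 9.54 and 9.58 in PT. Its T minus PT difference was -1.78 ± 0.31 (limma adjusted p = 0.00911). The microtubule-depolymerizing Kif2c, the chromokinesins Kif4 and Kif22 and the motors Kif15 and Kif18b were at background in mVec. Their fitted rises, which have no exact size, lay between 1.71 and 2.95 in T and between 2.62 and 4.28 in PT. Against the limit, T was at least 2.04-fold higher for Kif2c and 2.55-fold for Kif4. The bound in T was 1.94-fold for Kif15 and 1.86-fold for Kif18b, and Kif22 had none. In PT the bounds ran from 1.82-fold for Kif22 to 6.02-fold for Kif4. Of these motors, Kif18b missed the threshold in T minus PT (-0.96 ± 0.26, limma adjusted p = 0.0527).

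The family of kinesins allowed a comparison of relatives with and without a mitotic role. All 12 mitotic kinesins of the set, those of cytokinesis and Cenpe included, rose in both lines, with medians of 2.30 in T and 3.45 in PT. Kinesins listed below with other spindle and centrosome genes are not among the 12. Of those, Kif2a, above background on all arrays, and Kifc1, at background on all, were called higher in both lines. Kif2b and Kif24, at background on all arrays, were called in neither. In a list of 21 measured genes for kinesins of transport and cilia and their adaptor Kifap3, 1 rose and 5 fell in T and 2 rose and 6 fell in PT, with medians of 0.01 and -0.06. Over all gene probe sets, 16.9% were called higher and 15.5% lower in T and 17.9% and 18.0% in PT, so the counts of this list say little about it. Of the 21, 16 were above background on neither mVec array and 17 on neither array of T or of PT. Kif5b, the widely expressed kinesin-1 heavy chain, had 14.85 and 14.64 in mVec, 15.15 and 14.92 in T, and 15.19 and 15.21 in PT, and neither difference from mVec was called (0.29 ± 0.21 and 0.45 ± 0.21; this gene was picked as the brightest of the list after its values were seen). Kifap3, above background on all arrays, fell (-3.24 ± 0.20 in T and -3.22 ± 0.20 in PT), and the neuronal Kif5c, at background in all lines, was called higher in both. In T minus PT, 9 of the 12 mitotic kinesins of the set were lower in T and 0 higher, and of the other list 1 gene was lower and 1 higher. The shares of all gene probe sets were 2.70% lower and 5.67% higher, so the counts of the other list again say little about it.

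**Figure D3:**
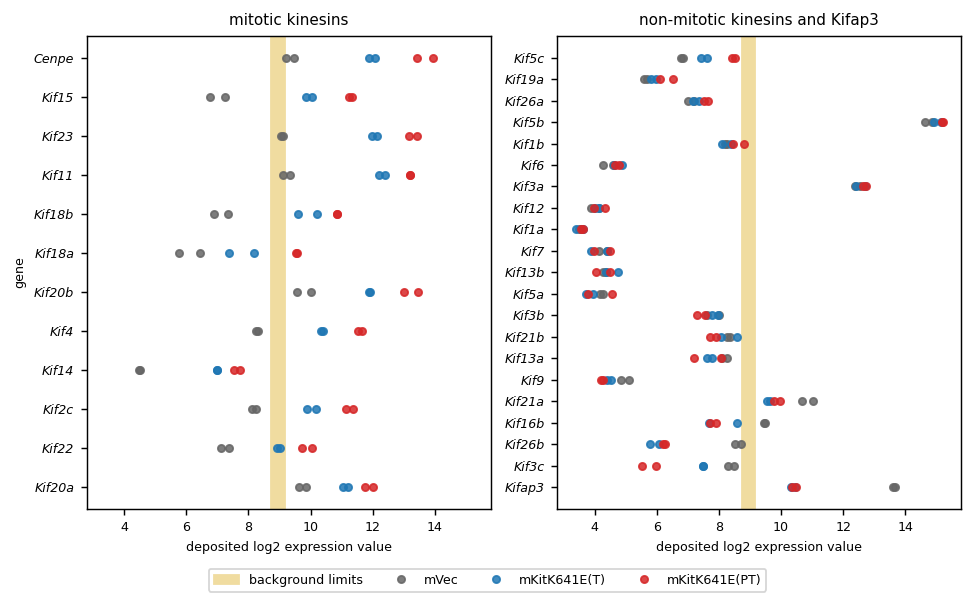
Deposited log2 values of the 12 mitotic kinesins of the set (left) and of 21 genes for non-mitotic kinesins with the adaptor Kifap3 (right) on the 6 arrays (grey mVec, blue T, red PT), ordered by PT minus mVec, with the band of background limits. On the left the 3 lines separate in every row; on the right most rows overlap or lie below the band.

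All 8 genes of cytokinesis rose in both lines, with medians of 2.74 in T and 4.05 in PT, and 6 of 8 were lower in T than in PT. Ect2, the exchange factor that activates RhoA at the cleavage plane, had 9.53 and 9.62 in mVec, 13.28 and 13.05 in T, and 14.48 and 14.22 in PT, a rise of 12-fold in T and 27.3-fold in PT. Its partners in the central spindle, Racgap1 and Kif23, rose with it: Racgap1 by 2.34 ± 0.26 in T and 3.88 ± 0.26 in PT, and Kif23 by 2.98 ± 0.21 and 4.23 ± 0.21. Prc1, which bundles the microtubules of the central spindle, was at background in mVec, with 7.28 and 6.94 in mVec, 10.70 and 10.40 in T, and 11.82 and 12.11 in PT, and stood at least 2.91-fold higher in T and at least 7.8-fold higher in PT. Anln, the anillin scaffold of the contractile ring, had T arrays more than 1 unit apart, at 10.86 and 9.79, against 11.74 and 11.56 in PT and 7.18 and 7.51 in mVec. Anln exceeded its mVec level at least 2.49-fold in T and at least 6.28-fold in PT. Of the motors of this stage, Kif20b rose by 2.11 ± 0.24 and 3.44 ± 0.24. Kif20a, the motor that brings the passenger complex to the midzone, rose by 1.40 ± 0.21 and 2.14 ± 0.21, and its T minus PT difference did not pass (-0.74 ± 0.21, limma adjusted p = 0.0666). Kif14 was at background on all arrays, but its means moved from 4.49 in mVec to 6.98 in T and 7.63 in PT, both called higher than mVec.

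All 5 spindle microtubule-associated proteins were lower in T than in PT, with a median of -1.79, against -0.98 for the kinases, -1.37 for the kinetochore and centromere genes and -1.29 for cytokinesis. These medians describe the groups, and no test was made between them. Tacc3, a stabilizer of spindle fibres, had 5.42 and 5.84 in mVec, 6.96 and 7.01 in T, and 9.76 and 10.76 in PT. It was above background only in PT, and T was lower by limma's test (adjusted p = 0.000928), with a gap of at least 2.69-fold against the limit. Its T minus mVec difference of 1.36 ± 0.32, with both lines at background, lost its call in 2 of 14 alternatives, without mVec replicate 1 (adjusted p = 0.0662) and with a minimum difference of 0.5 (0.0566), in a range from 0.00236 to 0.0662. Hmmr, a microtubule-binding partner of Tpx2, had 7.88 and 7.92 in mVec, 12.12 and 11.92 in T, and 13.66 and 13.57 in PT and was at least 8.08-fold higher in T and at least 24.4-fold higher in PT than in mVec. Tpx2, which activates Aurka on the spindle, was above background on all arrays, with 9.72 and 9.56 in mVec, 12.10 and 11.80 in T, and 13.81 and 13.67 in PT, and rose 4.96-fold in T and 17.1-fold in PT. Nusap1 had 8.02 and 8.00 in mVec, 10.54 and 10.76 in T, and 12.85 and 12.47 in PT, a gap of 4.02-fold between the Kit lines (-2.01 ± 0.22). Dlgap5, also called Hurp, rose by 1.21 ± 0.20 in T and 2.50 ± 0.20 in PT.

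The 3 other subunits of the chromosomal passenger complex rose with Aurkb. Incenp, its scaffold, had 6.29 and 6.60 in mVec, 9.92 and 10.08 in T, and 10.97 and 11.13 in PT. Cdca8, or Borealin, had 6.76 and 6.15 in mVec, 9.63 and 8.99 in T, and 11.37 and 11.46 in PT, a gap of 4.3-fold between the Kit lines. Birc5, or survivin, rose by 1.65 ± 0.26 in T and 2.90 ± 0.26 in PT. All 3 were at background in mVec and lower in T than in PT by limma's test.

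Genes of chromosome structure completed the set. Mki67, the coat protein of mitotic chromosomes used as a marker of dividing cells, had 10.62 and 10.22 in mVec, 12.61 and 12.55 in T, and 13.71 and 13.17 in PT. The arrays of the 3 lines did not overlap, but T minus PT did not pass (-0.86 ± 0.25, limma adjusted p = 0.0679, called in 4 of 14 alternatives, range 0.0198 to 0.941). Top2a, the topoisomerase that untangles sister chromatids, had 8.00 and 8.34 in mVec, 10.42 and 10.15 in T, and 11.53 and 12.40 in PT, and T was lower than PT (-1.68 ± 0.30, adjusted p = 0.00978). The condensin subunits Ncapg, Ncaph and Smc2 were at background in mVec. Their fitted rises, which have no exact size, were 3.10 ± 0.20, 2.48 ± 0.22 and 1.99 ± 0.25 in T. In PT they were 3.88 ± 0.20, 3.67 ± 0.22 and 2.85 ± 0.25. Against the limit, the folds were at least 4.41, 1.21 and 2.97 in T and at least 7.55, 2.77 and 5.39 in PT. Between T and PT, Ncapg and Ncaph were called (adjusted p = 0.0477 and 0.0107 by limma) and Smc2 was not (0.0651). The Ncapg call was lost in 10 of 14 alternatives, in a range from 0.0108 to 1, among them every fit without 1 array (0.0624 and 0.198 without T replicates 1 and 2, 0.218 and 0.116 without PT replicates 1 and 2, and 0.089 without either mVec array).

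**Figure D4:**
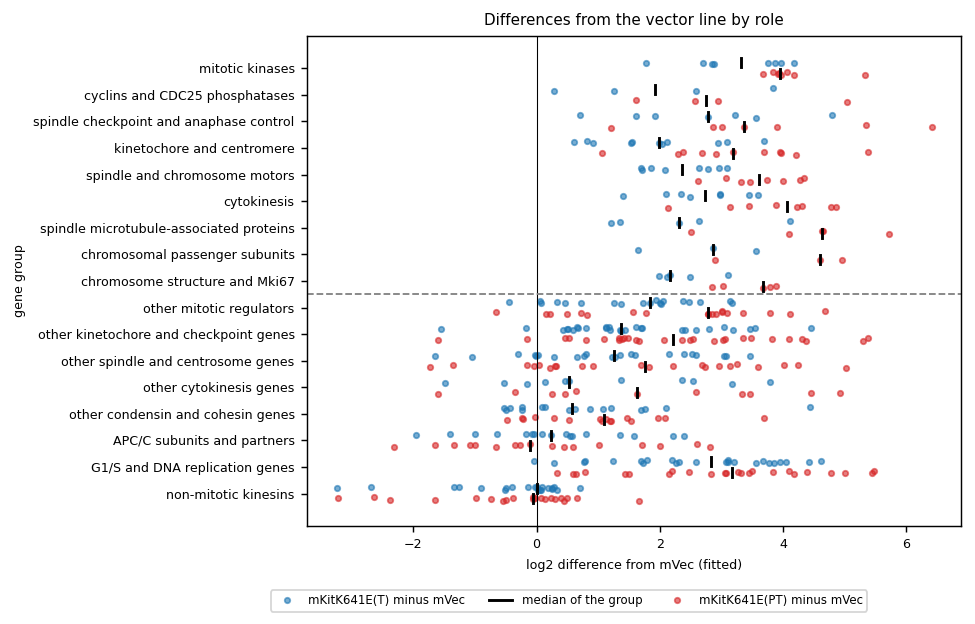
Fitted log2 difference from mVec of each mitotic gene by role (above the dashed line) and of genes in other lists (below it), for T (blue) and PT (red), with the median of each group as a black bar. The medians of the 9 mitotic roles lie between 1.92 and 3.32 in T and between 2.75 and 4.63 in PT. Those of G1/S and DNA replication genes lie inside these ranges, at 2.83 and 3.17. Those of non-mitotic kinesins lie at 0.01 and -0.06.

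Other genes of the same processes were listed too. The 60 genes and these lists were chosen with results of these data known, so their counts are not independent of that choice and were not tested against each other. Over all gene probe sets, 16.9% were called higher and 15.5% lower in T, and 17.9% and 18.0% in PT. The lists of this paragraph had smaller shares of falls than that. Of 28 other kinetochore and checkpoint genes, 21 rose and 1 fell in T and 24 rose and 1 fell in PT. They include Trip13, the ATPase that remodels Mad2 (at least 10.1-fold higher in T and at least 19-fold in PT), and the fall was that of Mad2l2 (at least 1.17-fold and at least 1.03-fold lower), a Mad2 relative best known for its role in DNA repair. Among 19 other mitotic regulators 13 rose in T and 14 in PT, with 0 and 1 lower (0 lower in T also at an unadjusted p under 0.05). They include Cks1b, a Cdk-binding subunit (3.16 ± 0.22 in T), Mybl2, a transcription factor that joins the MuvB complex (at least 1.83-fold higher in PT), and the kinase Nek7, which fell in PT (-0.66 ± 0.21). Of 11 other cytokinesis genes 5 rose and 1 fell in T and 7 rose and 1 fell in PT, among them the abscission protein Cep55 (at least 3.06-fold and at least 6.72-fold higher), and Septin9 fell (-1.49 ± 0.25 and -1.60 ± 0.25). Of 22 other spindle and centrosome genes 13 and 14 rose and 2 fell in each line, with Troap (at least 3.16-fold and at least 9.33-fold) among those that rose and Numa1, a spindle pole protein of the interphase nucleus, among those that fell (-1.64 ± 0.21 and -1.73 ± 0.21). Ccnb1 is not analysed here.

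The subunits of the anaphase-promoting complex, on which Cdc20 and Ube2c act, were listed with its partners. Of 17 measured genes of the complex and its partners, 5 rose and 3 fell in T and 5 rose and 5 fell in PT (over all gene probe sets 16.9% and 15.5% in T and 17.9% and 18.0% in PT), and all 17 were above background on both T arrays. Fbxo5, the inhibitor Emi1, was at least 2.96-fold higher in T, and the subunit Anapc7 at least 4.76-fold higher in PT, both at background in mVec, while Anapc13 fell in both (-1.95 ± 0.31 and -2.32 ± 0.31). Among 16 other condensin and cohesin genes, 8 rose in T and 10 in PT and 0 fell in either by limma's test; at an unadjusted p under 0.05, 1 was lower in T and 0 in PT. Cdca5, or sororin, which holds cohesin on chromatin after replication, was at background in mVec and at least 2.09-fold higher in T and at least 1.25-fold higher in PT.

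Genes of G1/S and DNA replication, which come before G2 and mitosis, also rose against mVec, with medians of 2.83 in T and 3.17 in PT. Of 24, 22 were higher in T and 21 in PT, against 16.9% and 17.9% of all gene probe sets. Between the Kit lines, 3 of 24 were lower in T than in PT and 0 higher by limma's test (10 and 2 at an unadjusted p under 0.05). Over all gene probe sets 2.70% were lower and 5.67% higher. The median of this list was -0.47, where 42 of the 59 mitotic genes were lower with a median of -1.24. The difference between these 2 lists was not tested.

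Between the 2 Kit lines, the 42 called mitotic genes had fitted differences from -3.28 to -0.77. In 40 of them at least 1 of the lines was above background; Cdc25b and Cenpf were at background in both. The 17 genes not called had differences from -0.99 to -0.01, and 10 of these had 95% intervals that lay below 0 before adjustment. The 5 genes with differences nearest 0 were Cdk1, Ttk, Mad2l1, Cenpn and Bub1, and their intervals reached down to -0.66, -0.72, -0.56, -0.76 and -0.84, so the data allow gaps of that size for them. The count of 42 depended on single arrays: it was 22 without T replicate 2, 21 without PT replicate 1 and 20 without PT replicate 2, and 11 when a difference of at least 0.5 was required of the test. The 13 genes called in every fit that left out 1 array were Nek2, Ube2c, Cenpa, Cenpm, Ndc80, Nuf2, Cenpe, Nusap1, Tpx2, Tacc3, Hmmr, Dlgap5 and Cdca8.

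**Figure D5:**
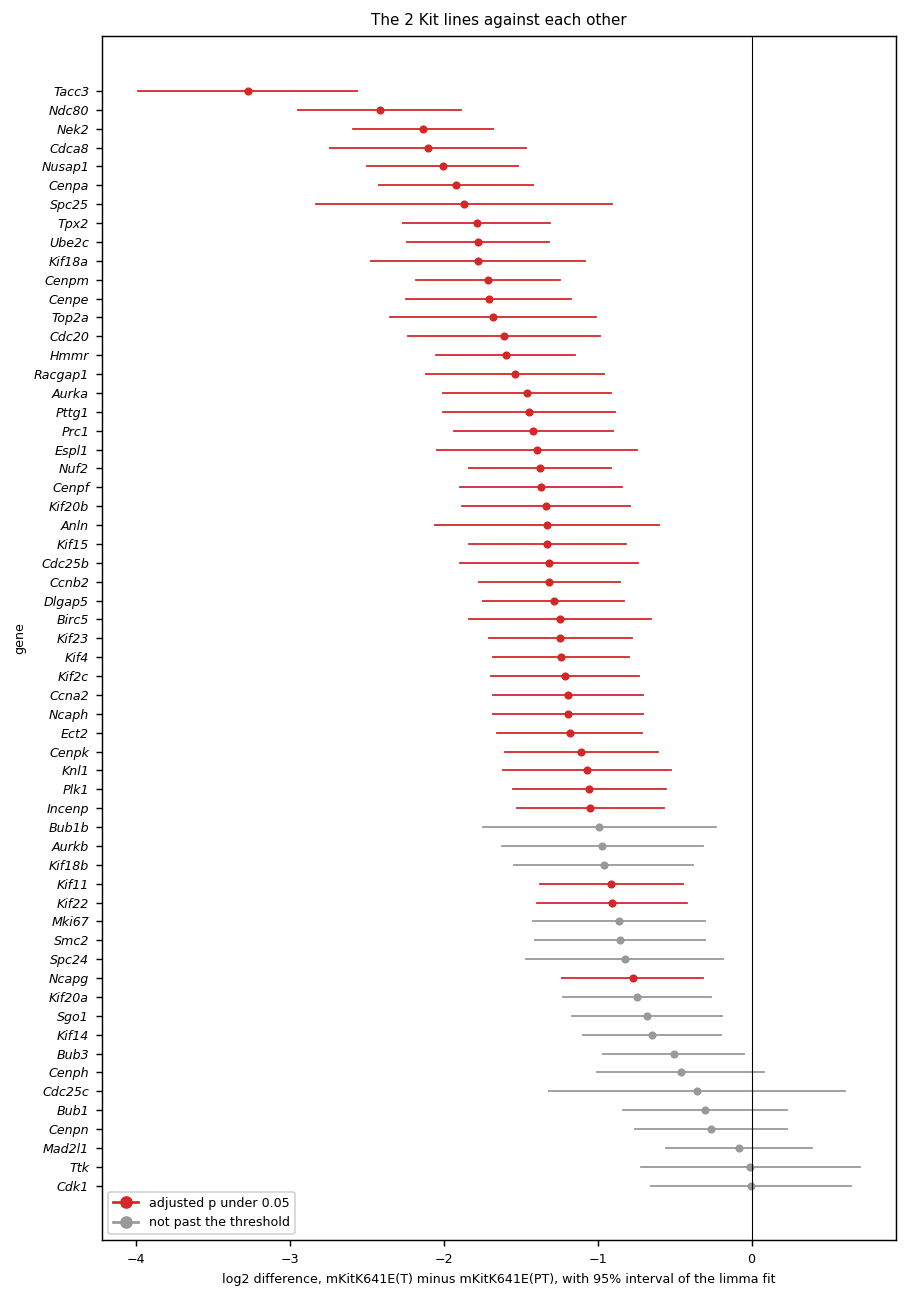
Log2 difference of T minus PT for each of the 59 mitotic genes, ordered by size, with the 95% interval of the limma fit before adjustment; red rows passed an adjusted p of 0.05 and grey rows did not. All 59 points lie at or left of 0, from -3.28 for Tacc3 to -0.01 for Cdk1.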

How the data were processed

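Total RNA of 3 cell lines was measured on 6 Affymetrix Clariom S arrays, 2 for each line. The authors deposited 1 normalized value per probe set and array, read here as log2 from its range; no source used here names the scale, normalization or software. Of 28846 rows, 22206 gene probe sets were tested and 6640 others left out. Symbols came from the platform annotation (19572 probe sets with 1 symbol, 2634 with none). The 60 genes and all lists were chosen with earlier results of these data known. Every one of the 60 may be named; of other lists, the called genes with the largest rise and fall in each comparison are named. Lines were compared with limma 3.58.1 in R 4.3.3 (lmFit and eBayes over all 6 arrays, 3 residual and 6.36 prior degrees of freedom, Benjamini-Hochberg over 22206 probe sets, threshold 0.05). Intervals are 95% and unadjusted. Each array's background limit was taken at the 95th percentile over its 5222 negative controls. Correlations between the 2 arrays of a line were 0.993 to 0.995, and no array stood apart. Scripts were tested on simulated data. Alternatives were other scalings, filters, variance models and limits, a minimum difference (limma's treat), a replicate block (statmod 1.5.0) and leaving out each array. Promoter windows are from RefSeq, GRCm38.p6. The 8 genes without one are Ccna2, Cdc25c, Aurkb, Kif20a, Spc24, Tpx2, Incenp and Dlgap5.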

Additional observations from a re-analysis of the deposited data

Results flagged for a closer look

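The T and PT lines, both carrying c-kit with the K641E substitution, differed from each other in 42 of the 59 mitotic genes by limma's test of T minus PT at an adjusted p under 0.05, and all 42 were lower in T (2.70% of all gene probe sets were). The differences against mVec share the mVec arrays, so T minus PT is the test of the difference between the lines. It covers 2 lines with 2 arrays each. Most of the 42 calls were lost in at least 1 alternative run, and the genes whose calls held in all runs are named above. The values are fitted differences. Those of Espl1, Spc25, Kif18a and Tacc3, with T at background, and of Cdc25b and Cenpf, with both lines at background, have no exact size. Among the mitotic kinases, T minus PT was -1.06 for Plk1, -1.46 for Aurka and -2.14 for Nek2. In the cyclins and CDC25 phosphatases, T minus PT was -1.19 for Ccna2, -1.32 for Ccnb2 and -1.32 for Cdc25b. For the spindle checkpoint and anaphase, T minus PT was -1.61 for Cdc20, -1.78 for Ube2c, -1.45 for Pttg1 and -1.40 for Espl1. At the kinetochore and centromere, T minus PT was -1.92 for Cenpa, -1.37 for Cenpf, -1.11 for Cenpk, -1.71 for Cenpm, -2.42 for Ndc80, -1.38 for Nuf2, -1.87 for Spc25 and -1.07 for Knl1. Of the spindle and chromosome motors, T minus PT was -0.91 for Kif11, -1.21 for Kif2c, -1.24 for Kif4, -1.33 for Kif15, -1.78 for Kif18a, -0.91 for Kif22 and -1.71 for Cenpe. In cytokinesis, T minus PT was -1.42 for Prc1, -1.33 for Anln, -1.18 for Ect2, -1.54 for Racgap1, -1.24 for Kif23 and -1.33 for Kif20b. For the spindle microtubule-associated proteins, T minus PT was -2.01 for Nusap1, -1.79 for Tpx2, -3.28 for Tacc3, -1.60 for Hmmr and -1.29 for Dlgap5. Within the chromosomal passenger complex, T minus PT was -1.25 for Birc5, -1.05 for Incenp and -2.10 for Cdca8. In chromosome structure, T minus PT was -1.68 for Top2a, -0.77 for Ncapg and -1.19 for Ncaph.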

How the results depend on the processing

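Against mVec, 53 to 57 genes rose in T and 54 to 59 in PT under other scalings, filters, variance models and a minimum difference, and 0 fell under any alternative run; the lowest PT count comes from the filter that tests 54 of the 59. Without 1 array, the counts ran from 54 to 57 in T and from 58 to 59 in PT. Centring each array on its median raised the medians to 2.68 in T and 4.02 in PT, a step that also moves the median of all gene probe sets. In T minus PT, the count of 42 lower genes ran from 20 to 40 without 1 array and was 11 with a minimum difference of 0.5. Direction reversed only for genes not called: without 1 array, Cdk1 ran from -0.22 (without PT replicate 1) to 0.21 (without PT replicate 2), Ttk from -0.42 (without T replicate 2) to 0.41 (without T replicate 1) and Mad2l1 from -0.23 (without PT replicate 2) to 0.062 (without PT replicate 1). With the 99th percentile as the background limit, 6 genes in T, 18 in PT and 1 in mVec were above it on both arrays, and with the 90th 29 were in mVec. With the replicate number as a block the counts were 56, 59 and 42; same-numbered arrays did not deviate together (correlations 0.082, 0.043 and 0.040), so the numbers give no pairing. Requiring 2 arrays above background leaves out Cdc25b, Cenpf, Cenph, Spc24 and Kif14. Over all gene probe sets, T minus PT had 1857 calls, 370 with the minimum difference, and 659, 549 and 801 without T replicate 2, PT replicate 1 and PT replicate 2; T minus mVec had 7201 and 4551 with the minimum difference. Each gene had 1 probe set, so no other probe set could be chosen. With 2 arrays of 1 line per group, precision is limited by their number, and levels near the negative controls are bounds. No cause of these changes was tested.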
